A study of Mus musculus with 6 samples.

Results

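The histone genes of the mouse fibrosarcoma UV2237M were taken as every gene symbol in the count tables that starts with Hist1h to Hist4h, H2af, H3f3 or H1f, which gave 84 of 23183 symbols. Of these, 68 carry a Hist symbol and are called cluster histones here, and 16 are variant histones named H1f, H2af or H3f3. RNA of this tumour was sequenced in 6 libraries, and each library is called a tumour here. The 3 treated tumours received gold nanoclusters (labelled GNC) at day 1 and again at day 7, with irradiation in the near infrared, and the 3 untreated tumours received nothing. All 6 share the same line and are labelled WT. The labels give neither the host strain nor its age, and they name no group given nanoclusters without irradiation or irradiation without nanoclusters, so the parts of the treatment cannot be told apart. Nothing in the labels says that the 3 libraries of a group came from separate animals, so p-values measure the spread between these libraries, which may be technical.

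Histones are the proteins that DNA is wound around. H2A, H2B, H3 and H4 form the core of the nucleosome, and H1, the linker histone, binds where DNA enters and leaves it. The cluster genes are used mainly while DNA is copied in S phase, and most of their mRNAs end in a conserved stem-loop, bound by the protein SLBP, in place of a poly(A) tail. The variant genes mostly lie apart from the clusters and mostly give polyadenylated mRNAs, and many of them are expressed through the cell cycle.

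The deposited counts summed to between 4680295 and 8019294 per library. Cluster histones held 4254 to 6868 of these counts and variant histones 13455 to 18375, so counting error is small for the sums and wide for most single genes. Library untreated 2 stood apart from the other 5. Over genes with at least 20 counts, the mean chi-square per gene between its counts and those of another library was 100 to 135, against 5.64 to 42.6 between any pair of the others, and no pair looked like 1 library deposited again. Fold changes between the groups are therefore given with and without it. The 7 mesenchymal markers, collagens and vimentin among them, summed to 27287 to 34629 CPM (counts scaled to the library's total) in treated and 24879 to 38062 CPM in untreated tumours and were detected in every library. Other cells were also present in the tissue. The 7 leukocyte markers summed to 233.1 to 355.4 CPM in treated and 448.9 to 613.4 CPM in untreated tumours, with Cd3e at 0 in every library. The 4 keratinocyte markers summed to 3.84 to 58.7 CPM in treated and 5.49 to 1019 CPM in untreated tumours, and Krt5, Krt14 and Krt1 were at 0 in treated 2 and untreated 3. The 2 endothelial markers summed to 85.1 to 126.6 CPM in treated and 55.1 to 106.5 CPM in untreated tumours. The 3 skeletal muscle markers summed to 1.10 to 236.3 CPM in treated and 7.86 to 40.8 CPM in untreated tumours. The part of these cells in the histone values was not tested. In such tissue, fewer cells of a type and less RNA per cell cannot be told apart.

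The stem-loop that sets the cluster mRNAs apart was searched for on the sense strand of the GENCODE M21 transcript models (mm10), as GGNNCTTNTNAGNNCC with its first 6 and last 6 letters reverse complements of each other. It was found in 46 of 68 cluster genes, in 1 of 16 variants and in 9 of 22064 other genes (0.0408%). In the 46 cluster genes it began 21 to 58 bases after the stop codon, with a median of 31. Of the 22 cluster genes without a match, 15 have models that end within 10 bases of the stop codon and so cannot hold it. The following stem-loops, in capitals with 5 flanking bases on each side, show how the forms differ between histone classes and include the variant that carries one. Hist1h1e lies at chr13:23621777-23621802 on the minus strand, Hist1h3e at chr13:23561898-23561923 on the minus strand, Hist1h4h at chr13:23531453-23531478 on the plus strand, Hist1h4b at chr13:23757361-23757386 on the plus strand, Hist2h4 at chr3:96262934-96262959 on the minus strand and H2afx at chr9:44335235-44335260 on the plus strand.
Hist1h1e: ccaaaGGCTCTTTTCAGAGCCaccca
Hist1h3e: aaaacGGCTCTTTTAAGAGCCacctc
Hist1h4h: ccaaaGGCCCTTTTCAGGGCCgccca
Hist1h4b: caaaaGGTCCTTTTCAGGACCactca
Hist2h4: ctaacGGCCCTTTTTAGGGCCaacca
H2afx: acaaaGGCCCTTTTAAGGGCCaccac

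The capitals took 9 forms. The form shown for Hist1h1e was held by 26 cluster genes of the H1, H2A, H2B and H3 classes, and the form shown for Hist1h3e by 6 of the H1, H2B and H3 classes. The form shown for Hist1h4h was held by 7 genes, all of them H4. H2afx, which encodes H2A.X, the variant phosphorylated around DNA double-strand breaks, is known for giving both a stem-loop and a polyadenylated mRNA. Its model runs 822 bases past the stem-loop and has a polyadenylation signal near its end. Models of cluster genes also differed in this, since 24 ended within 150 bases of the stem-loop and 22 ran further.

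Promoters were taken from RefSeq (GRCm38.p6) as 300 bases, 250 before and 50 after the start, for the 74 members that matched. Each motif was searched on both strands. The octamer ATTTGCAT, bound by the factor OCT1 and known from H2B promoters, was in 13 of 61 cluster promoters (21.3%), in 1 of 13 variant promoters and in 1.74% of all 32851 promoters. It was in 6 of 16 H2B and 7 of 17 H2A promoters and in none of the H1, H3 or H4 promoters. Some divergent H2A and H2B neighbours, such as Hist1h2ae and Hist1h2bg, share a single site that is counted for both. TATAAA was in 57.4% of cluster, 7.69% of variant and 13.6% of all promoters, and CCAAT in 85.2%, 69.2% and 37.4% of the same sets. A match counted at any position, and some cluster promoters hold TATAAA only on the opposite strand, as that of Hist1h2bf does. The following 2 promoters are shown because both hold all 3 motifs, in capitals, one at a cluster gene and one at the only variant that does. The promoter of Hist1h2bg lies at chr13:23571150-23571449 on the plus strand and overlaps that of its divergent neighbour Hist1h2ae, and the promoter of H3f3b lies at chr11:116024455-116024754 on the minus strand.
Hist1h2bg: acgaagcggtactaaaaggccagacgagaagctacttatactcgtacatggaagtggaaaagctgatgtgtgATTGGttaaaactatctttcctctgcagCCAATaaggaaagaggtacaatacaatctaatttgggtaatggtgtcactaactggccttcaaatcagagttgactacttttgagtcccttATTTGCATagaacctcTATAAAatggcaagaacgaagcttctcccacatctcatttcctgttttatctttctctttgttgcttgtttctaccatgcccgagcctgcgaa
H3f3b: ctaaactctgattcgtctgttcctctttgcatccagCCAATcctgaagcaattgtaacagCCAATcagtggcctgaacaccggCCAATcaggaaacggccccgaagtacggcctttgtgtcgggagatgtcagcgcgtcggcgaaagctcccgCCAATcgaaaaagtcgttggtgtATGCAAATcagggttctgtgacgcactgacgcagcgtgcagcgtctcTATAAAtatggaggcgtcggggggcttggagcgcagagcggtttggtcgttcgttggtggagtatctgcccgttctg

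Cluster histones summed to 1186, 666.4 and 537.5 CPM in treated tumours 1 to 3, against 779.2, 1467 and 691.7 CPM in untreated tumours 1 to 3. Untreated 2 was highest, treated 1 was next, and the groups overlapped. The mean was 796.5 ± 343.2 CPM in treated and 979.4 ± 424.9 CPM in untreated tumours (SD, n = 3 each), a log2 difference of -0.30 with all libraries and 0.12 without untreated 2. The direction thus rested on untreated 2. Other libraries also moved the size: the difference was -0.70 without treated 1, -0.19 without treated 2, -0.08 without treated 3 and -0.50 without untreated 3. Variant histones summed to 2362, 2024 and 2292 CPM in treated tumours, against 2070, 3607 and 2291 CPM in untreated tumours. Here untreated 2 was again highest and the other 5 libraries lay close together. The mean was 2226 ± 178.3 CPM in treated and 2656 ± 831.1 CPM in untreated tumours (SD, n = 3 each), a log2 difference of -0.25, or 0.03 without untreated 2 and -0.41 without untreated 1.

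**Figure D1:**
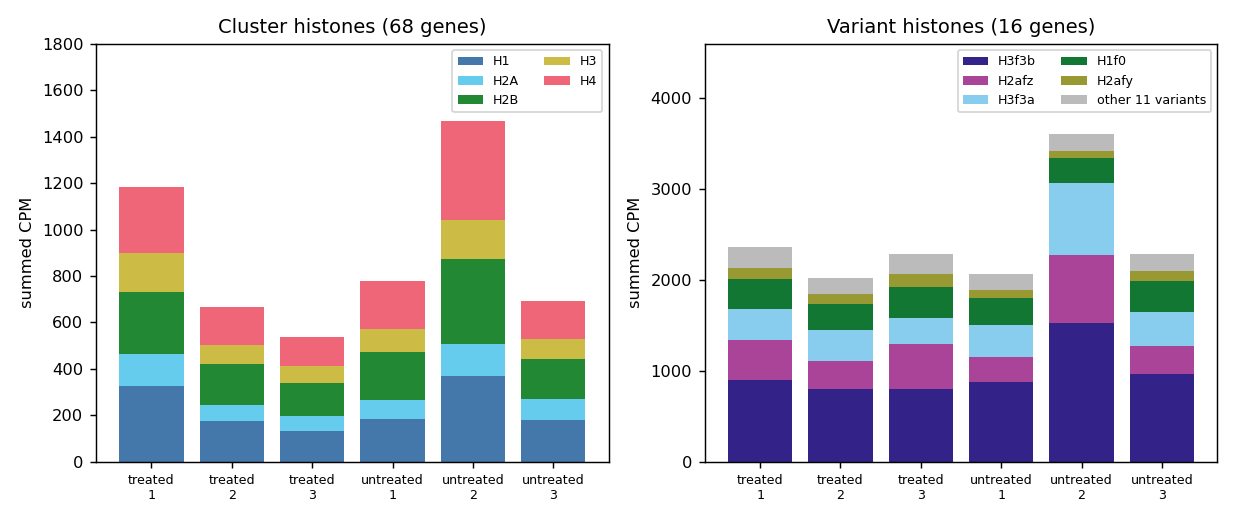
Summed CPM of cluster histones, stacked by class (left), and of variant histones, stacked by gene (right), with 1 bar per library, treated left of untreated. Untreated 2 has the tallest bar in both panels (1467 and 3607 CPM), and treated 1 stands above the remaining 4 in cluster histones (1186 CPM).

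The ratio of cluster to variant CPM was 0.502, 0.329 and 0.234 in treated tumours and 0.376, 0.407 and 0.302 in untreated tumours. Treated tumours spanned the untreated range. The log2 difference of the mean ratio was -0.03, and 0.07 without untreated 2, -0.36 without treated 1 and 0.20 without treated 3. Untreated 2 lay inside the treated range, and its ratio was 1.17-fold the mean of the other 5. Per kb of the longest transcript model, the ratio was 1.51, 0.991 and 0.663 in treated and 1.15, 1.17 and 0.921 in untreated tumours. On that scale the cluster sum exceeded the variant sum in 3 of 6 libraries, treated 1, untreated 1 and untreated 2.

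Single members were compared with edgeR's quasi-likelihood test over all 12517 genes that passed a filter on low counts, with Benjamini-Hochberg adjustment over all of them. The filter kept 63 members, 52 cluster and 11 variant. Of the 21 members not tested, 10 were at 0 in all libraries and 9 had 1 to 10 counts in all. At adjusted p under 0.05, 0 of 63 members and 0 of 12517 genes (0%) were called, and the smallest adjusted p of a member was 0.592. DESeq2 called 43 genes (0.293%) and 0 members. Without untreated 2, edgeR called 0 of 12836 genes (0%) and 0 members, with a smallest adjusted p of 0.243 among members, and DESeq2 called 233 genes (2.17%) and 0 members.

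At unadjusted p under 0.05, 0 members were higher in treated tumours, against 3.32% of all genes, and 1 was lower, against 4.85%. The 1 was Hist2h4, an H4 gene. Among the 63 tested members, the groups did not overlap in 0 with treated above, against 10.3% of genes, and in 2 with treated below, against 10.7%, which were Hist2h4 and H3f3a. Of the members not tested, Hist3h2ba had 1, 2 and 4 counts in treated and 0, 0 and 0 counts in untreated tumours, too few to compare. With all libraries, the estimate was higher in treated tumours for 6 cluster members and lower for 46, with a median log2 fold change of -0.28, where 49.9% of all genes were higher and 50.1% lower. Without untreated 2, 36 cluster members were higher and 16 lower, with a median of 0.14, against 50.1% and 49.9% of all genes, and 30 members turned from lower to higher. Among variants 7 were higher and 4 lower with all libraries (median 0.11), and 6 and 5 without untreated 2 (median 0.04).

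Linker histones of the cluster were led by Hist1h1b and Hist1h1a. The examples of each class, here and below, are its 2 members with the highest CPM per kb. That measure favours genes with short models, and ranks by mean CPM differ in every class. Hist1h1e and Hist1h1c, for example, had means of 62.7 and 45.5 CPM, against 29.8 for Hist1h1a. Most examples have no stem-loop in their model. In untreated 2, such cluster genes summed to 1.56-fold the mean of the other 5 libraries, against 2.14-fold for those with a stem-loop. The sets also differ in histone class and in GC content, with medians of 61.85% without and 56.35% with a stem-loop. The part of these differences was not tested. Hist1h1b had 123 CPM in treated 1, 49.4 in treated 2 and 37.4 in treated 3, against 56.8, 72.2 and 51.5 CPM in untreated tumours 1 to 3. Treated 1 was the highest library, and treated tumours spanned the untreated range. Its log2 fold change was 0.21 ± 0.46 (SE; edgeR adjusted p = 0.877), and 0.37 ± 0.46 without untreated 2. Hist1h1a had 40.2, 30.3 and 21.2 CPM in treated and 26.2, 40.4 and 20.5 CPM in untreated tumours, with a log2 fold change of 0.06 ± 0.36 (edgeR adjusted p = 0.958), and 0.40 ± 0.27 without untreated 2. Treated 1 and untreated 2 were level at the top.

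H2A cluster genes were led by Hist1h2ak and Hist1h2ai. Hist1h2ak had 51.4, 20.2 and 21.5 CPM in treated and 26.7, 39.3 and 27.9 CPM in untreated tumours (log2 fold change -0.02 ± 0.42, edgeR adjusted p = 0.988). Hist1h2ai had 18.1, 5.35 and 4.42 CPM in treated and 8.68, 15.8 and 8.23 CPM in untreated tumours (log2 fold change -0.25 ± 0.61, edgeR adjusted p = 0.890). In both, treated 1 was highest, untreated 2 next and the groups overlapped. Without untreated 2 the fold changes were 0.18 ± 0.40 for Hist1h2ak and 0.13 ± 0.59 for Hist1h2ai. Of the 50-base windows of Hist1h2ai, 90.1% also occur at other loci, so its reads cannot be assigned to it with certainty, and the same holds for 52.3% of those of Hist1h2ak.

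H2B cluster genes were led by Hist2h2bb, the cluster member with the most counts, which held 10.1% of the cluster CPM. It had 117, 75.9 and 56.5 CPM in treated and 80.3, 136 and 70.1 CPM in untreated tumours (log2 fold change -0.22 ± 0.38, edgeR adjusted p = 0.842), and 0.15 ± 0.28 without untreated 2. None of its windows occurs elsewhere, against 86.4% of those of Hist1h2bn, with overlapping genes left out of both counts. Hist2h2bb overlaps Gm42743 on the same strand and Gm20628 on the opposite strand, so its reads can be shared with them. Hist1h2bn had 11.9, 8.78 and 4.42 CPM in treated and 14.2, 20.7 and 8.73 CPM in untreated tumours (log2 fold change -0.81 ± 0.48, edgeR adjusted p = 0.611). Its fold change stayed below 0 without untreated 2, at -0.45 ± 0.42, and the groups overlapped. In both genes untreated 2 was the highest library and treated 3 the lowest.

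H3 cluster genes were led by Hist1h3e and Hist1h3i. Hist1h3e had 30.4, 19.2 and 16.7 CPM in treated and 20.9, 40.0 and 16.8 CPM in untreated tumours (log2 fold change -0.25 ± 0.41, edgeR adjusted p = 0.834). Hist1h3i had 17.7, 7.27 and 6.06 CPM in treated and 7.01, 11.5 and 7.86 CPM in untreated tumours (log2 fold change 0.22 ± 0.48, edgeR adjusted p = 0.870). Untreated 2 was highest in Hist1h3e and treated 1 in Hist1h3i. Without untreated 2 the fold changes were 0.23 ± 0.28 for Hist1h3e and 0.47 ± 0.47 for Hist1h3i. Other loci hold 73.4% of the windows of Hist1h3e and 87.6% of those of Hist1h3i, so their reads are uncertain too. Hist1h3d, chosen after its values were seen, was the only tested cluster member below the mean of the other 5 libraries in untreated 2, with 24.8, 12.9 and 12.8 CPM in treated and 14.6, 9.19 and 6.98 CPM in untreated tumours.

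H4 cluster genes were led by Hist1h4k and Hist1h4h. Hist1h4k had 50.9, 23.2 and 22.0 CPM in treated and 29.1, 54.9 and 23.6 CPM in untreated tumours (log2 fold change -0.18 ± 0.47, edgeR adjusted p = 0.897). Hist1h4h had 25.8, 14.4 and 6.95 CPM in treated and 18.6, 47.9 and 11.5 CPM in untreated tumours (log2 fold change -0.75 ± 0.66, edgeR adjusted p = 0.702). The low estimate of Hist1h4h rested on untreated 2, without which it was 0.07 ± 0.50, and that of Hist1h4k was then 0.29 ± 0.37. Other loci hold 71.5% of the windows of Hist1h4k and 45.8% of those of Hist1h4h. Hist2h4 had 33.5, 30.9 and 21.0 CPM in treated and 44.3, 44.4 and 40.4 CPM in untreated tumours. All treated tumours lay below all untreated ones, and untreated 2 did not stand out. Its log2 fold change was -0.61 ± 0.24 (edgeR unadjusted p = 0.0371, adjusted p = 0.592), and -0.57 ± 0.21 without untreated 2, so it did not pass the threshold after adjustment. Its model runs 1257 bases past its stem-loop, and 1.01% of its windows occur at other loci.

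Among the variant linker histones, H1f0, which accumulates in differentiated and resting cells, had 330.4, 288 and 337 CPM in treated and 300.2, 275 and 346 CPM in untreated tumours (log2 fold change 0.04 ± 0.19, edgeR adjusted p = 0.943). H1fx had 16.0, 15.1 and 18.6 CPM in treated and 17.8, 8.12 and 17.0 CPM in untreated tumours (log2 fold change 0.20 ± 0.31, edgeR adjusted p = 0.821). Untreated 2 was the lowest library in both, and the groups overlapped. Without it the fold changes were -0.01 ± 0.12 for H1f0 and -0.06 ± 0.18 for H1fx.

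The H2A variants moved in different directions in untreated 2. H2afz, the main gene of H2A.Z, which marks promoters, had 435, 309 and 488 CPM in treated and 271, 754 and 307 CPM in untreated tumours. Its log2 fold change was -0.14 ± 0.45 (edgeR adjusted p = 0.917), and 0.51 ± 0.19 without untreated 2 (edgeR unadjusted p = 0.0275, adjusted p = 0.243). H2afv, the second gene of H2A.Z, had 37.9, 43.1 and 41.7 CPM in treated and 36.9, 34.8 and 40.2 CPM in untreated tumours (log2 fold change 0.12 ± 0.17, edgeR adjusted p = 0.801). Untreated 2 was the highest library for H2afz and the lowest for H2afv, whose fold change without it was 0.09 ± 0.12. Other loci hold 69.6% of the windows of H2afz. H2afy, which encodes macroH2A, linked to silent chromatin, had 126, 106 and 148 CPM in treated and 88.7, 81.8 and 108 CPM in untreated tumours. Treated 2 was below untreated 3, so the groups overlapped. The log2 fold change of H2afy was 0.44 ± 0.21 (edgeR unadjusted p = 0.0757, adjusted p = 0.592), and 0.37 ± 0.16 without untreated 2 (unadjusted p = 0.0461, adjusted p = 0.266). H2afz and H2afy were the 2 members higher at unadjusted p under 0.05 without untreated 2, where 9.55% of all genes were higher, and Hist2h4 was the 1 lower, where 8.85% were.

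H2afx had 94.8, 66.7 and 89.4 CPM in treated and 61.7, 73.7 and 73.8 CPM in untreated tumours (log2 fold change 0.25 ± 0.22, edgeR adjusted p = 0.702), and H2afj had 74.4, 47.9 and 64.2 CPM in treated and 51.9, 68.8 and 50.6 CPM in untreated tumours (log2 fold change 0.11 ± 0.26, edgeR adjusted p = 0.887). The groups overlapped in both, and untreated 2 was inside the range of the other libraries. Without it the fold changes were 0.31 ± 0.17 for H2afx and 0.28 ± 0.19 for H2afj. H2afx, the variant with a stem-loop, did not follow the cluster genes in untreated 2, at 0.954-fold the mean of the other 5. H2afy3, annotated as a processed pseudogene, had 5.62, 7.96 and 8.34 CPM in treated and 7.77, 0.427 and 6.61 CPM in untreated tumours (log2 fold change 0.54 ± 0.72, edgeR adjusted p = 0.790), and was 0.0589-fold the mean of the others in untreated 2. Its fold change rested on that library, without which it was 0.04 ± 0.28. H2afy3 overlaps Pvt1 on the opposite strand, so its reads can be shared with that gene.

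H3f3a and H3f3b encode the same replacement H3 protein, laid down independently of DNA replication. H3f3a had 337, 340.3 and 292 CPM in treated and 351, 785 and 372 CPM in untreated tumours. All treated tumours lay below all untreated ones, and untreated 2 was far above the rest. Its log2 fold change was -0.66 ± 0.36 (edgeR adjusted p = 0.601) and -0.15 ± 0.12 without untreated 2. H3f3b had 905, 798 and 804 CPM in treated and 882, 1525 and 969 CPM in untreated tumours (log2 fold change -0.45 ± 0.28, edgeR adjusted p = 0.623), and -0.14 ± 0.13 without untreated 2. The groups overlapped in H3f3b, and untreated 2 was again the highest library.

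**Figure D2:**
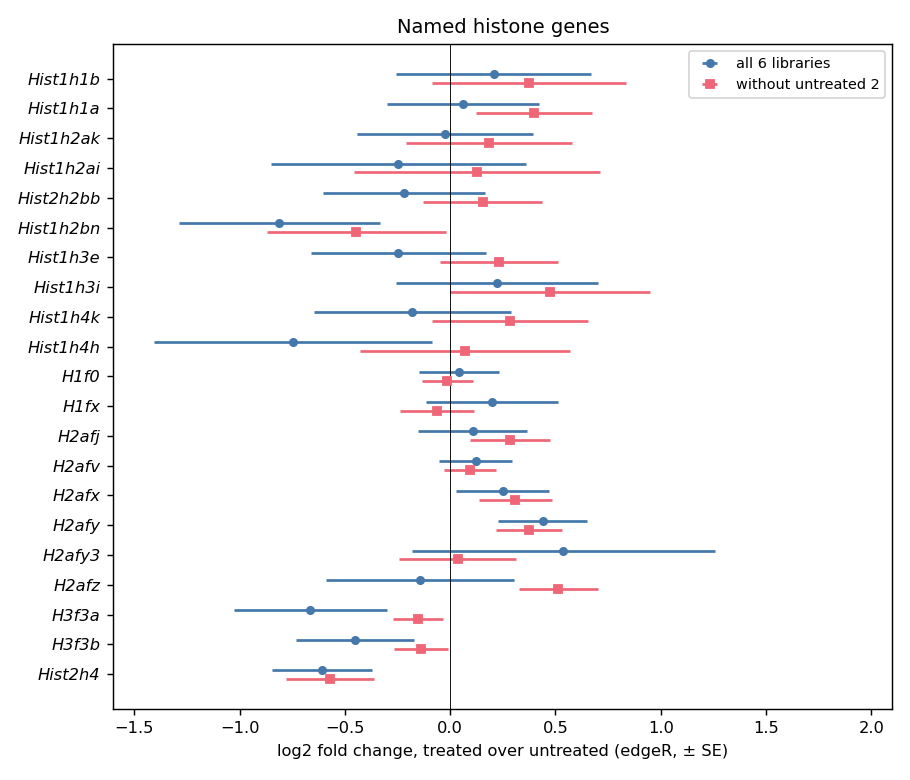
Log2 fold change of each named histone gene, treated over untreated, with all 6 libraries (circles) and without untreated 2 (squares), bars showing ± SE from edgeR. Most cluster genes move right without untreated 2, Hist2h4 stays at -0.57, and no member passes the adjusted threshold.

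Untreated 2 was set beside the mean of the other 5 libraries as values only, since 1 library allows no test. Cluster histones were 1.90-fold and variant histones 1.63-fold that mean, at 1467 and 3607 CPM. Single members differed between the sets. Untreated 2 was the highest library in 32 of 52 tested cluster members and the lowest in 0, where 34.8% of all genes had it highest and 41.7% lowest. Among the 11 tested variants it was highest in 3 (H2afz, H3f3a and H3f3b) and lowest in 5 (H1f0, H1fx, H2afv, H2afy and H2afy3). The median log2 difference was 0.95 for cluster members, -0.19 for variants and -0.10 for all tested genes.

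By class, the summed cluster CPM in untreated 2 was 1.84-fold the mean of the other 5 for H1, 1.56-fold for H2A, 1.91-fold for H2B, 1.61-fold for H3 and 2.27-fold for H4. H4 stood highest, and all 12 tested H4 genes had their highest value there. The H2A and H3 sums were highest in treated 1, at 141.7 and 169.2 CPM, against 136.7 and 165.8 CPM in untreated 2. The range over single cluster members ran from -0.52 for Hist1h3d to 1.91 for Hist1h4c on the log2 scale, and 51 of 52 were above 0. Among variants it ran from -3.37 for H2afy3 to 1.22 for H3f3a.

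**Figure D3:**
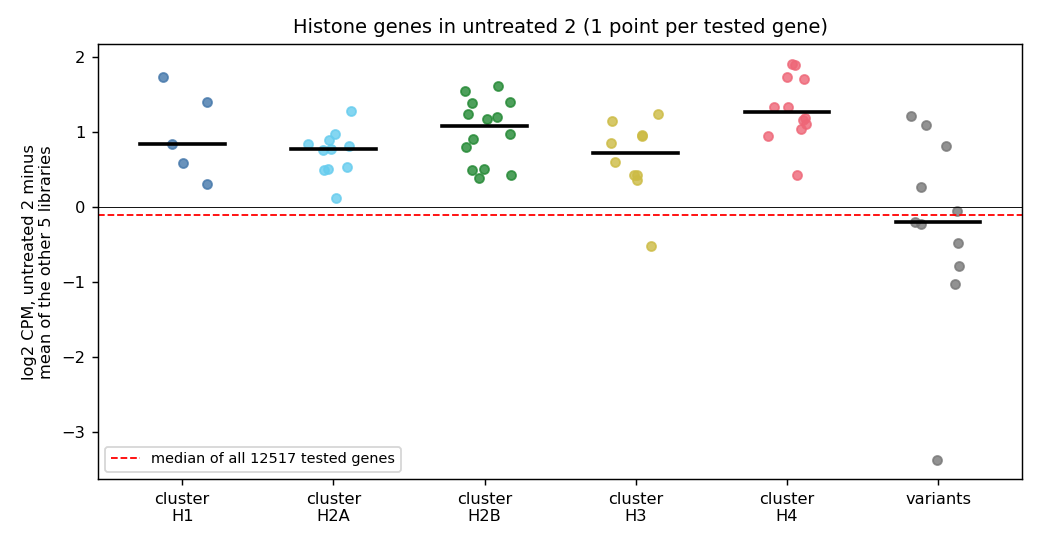
Log2 CPM of untreated 2 minus the mean of the other 5 libraries, 1 point per tested histone gene, by class, with medians as black bars and the median of all 12517 tested genes (-0.10) as a dashed line. The H4 genes have a median of 1.26, and the variants spread on both sides of 0 with a median of -0.19.

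Untreated 2 also differed from the others by base composition and transcript length. Over all tested genes, its median log2 difference was 0.70 in the fifth of genes with the lowest GC content of the longest transcript, then 0.12, -0.22, -0.50, and -0.84 in the fifth with the highest. The medians of cluster members over the same bins were 1.16, 1.20, 1.05, 0.89 and 0.89, which also declined but lay above the median of all genes in each bin, and all 29 members in the bin of highest GC (55.4% to 71.3%) lay above its median. Over genes, which are not independent replicates and share these libraries, Spearman's rho with GC was -0.274 over 52 cluster members and -0.469 over 12440 genes. The variants had 2, 1, 2, 4 and 2 members in these bins, with medians of 1.01, -0.19, 0.31, -0.50 and -0.54. H3f3a and H3f3b made up the lowest bin. The middle bin held H2afz at 1.10 and H2afy at -0.47, where the median of all genes was -0.22. With the trend over GC content and length removed from each library, the log2 value of untreated 2 was 0.60 for summed cluster histones, against 0.93 as counted, and 0.37 for summed variant histones, against 0.71.

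**Figure D4:**
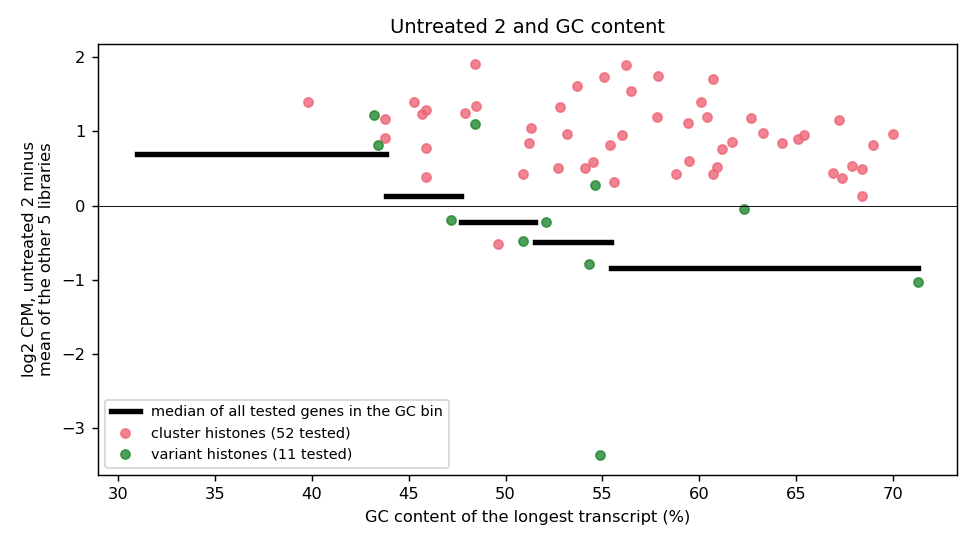
Log2 CPM of untreated 2 minus the mean of the other 5 libraries (vertical) against GC content of the longest transcript in percent (horizontal), for cluster and variant histones, with black lines for the median of all tested genes in each of 5 GC bins. The lines descend to -0.84, while the cluster genes of the highest bin keep a median of 0.89.

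The cluster level also varied among the other 5 libraries. Untreated 2 and treated 1 were the 2 highest libraries in 44 of 52 cluster members, against 10.9% of all genes and 1 of 11 variants. Treated 1 was the highest of the 5 other libraries in 46 of 52, against 19.1% of all genes. Treated 3 was the lowest of all 6 in 36 of 52, against 15.9%. In the cluster sum, treated 1 lay above and treated 3 below both untreated 1 and untreated 3.

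Position and model structure were set beside the level in untreated 2. Of the cluster genes, 23 lie at chr13:21715763-22043676, 31 at chr13:23531050-23934851 and 10 at chr3:96219865-96270132, with 3 on chromosome 11 and 1 on chromosome 6. The summed CPM of these blocks in untreated 2 was 1.58-fold, 2.17-fold, 1.70-fold, 1.67-fold and 2.07-fold the mean of the other 5. Each block was thus above that mean. The block named first was higher still in treated 1, at 383.6 CPM against 353.4 CPM in untreated 2. The 24 genes whose model ends within 150 bases of the stem-loop were 2.20-fold, and the 22 whose model runs further 2.11-fold. The 22 without a stem-loop in their model were 1.56-fold, and higher in treated 1 (508.7 CPM) than in untreated 2 (496.8 CPM). Median GC content in these sets was 60.25%, 50.25% and 61.85%. They also differ in histone class, and the part of either was not tested. Near-identical copies limit the assignment of single genes. Of the 14 cluster genes with 10 or fewer counts, 7 share over 80% of their 50-base windows with other loci, against 8 of the 52 tested, so the counts of such genes are uncertain.

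RNAs without a poly(A) tail outside the histone family, chosen after their values were seen, were set beside the cluster genes. Rmrp, the RNA of the RNase MRP complex, had 1506, 986.9 and 650.2 CPM in treated and 1132, 1873 and 867.0 CPM in untreated tumours. Rpph1, the RNA of RNase P, had 462.4, 290.6 and 119.8 CPM in treated and 455.9, 1053 and 239.8 CPM in untreated tumours. Malat1, a nuclear RNA whose end is cut by RNase P and also carries no poly(A) tail, had 10993, 19846 and 15742 CPM in treated and 20969, 1922 and 16874 CPM in untreated tumours. Malat1 did not share the high level of the cluster genes in untreated 2 and treated 1, being lowest in untreated 2 at 0.114-fold the mean of the other 5 and next lowest in treated 1. From high to low, Rmrp and Rpph1 followed the order untreated 2, treated 1, untreated 1, treated 2, untreated 3, treated 3. The cluster sum had the same order except that untreated 3 came before treated 2. Whether poly(A) selection or removal of ribosomal RNA preceded the libraries is not given in the sources used here, and the part of either in the cluster level was not tested.

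**Figure D5:**
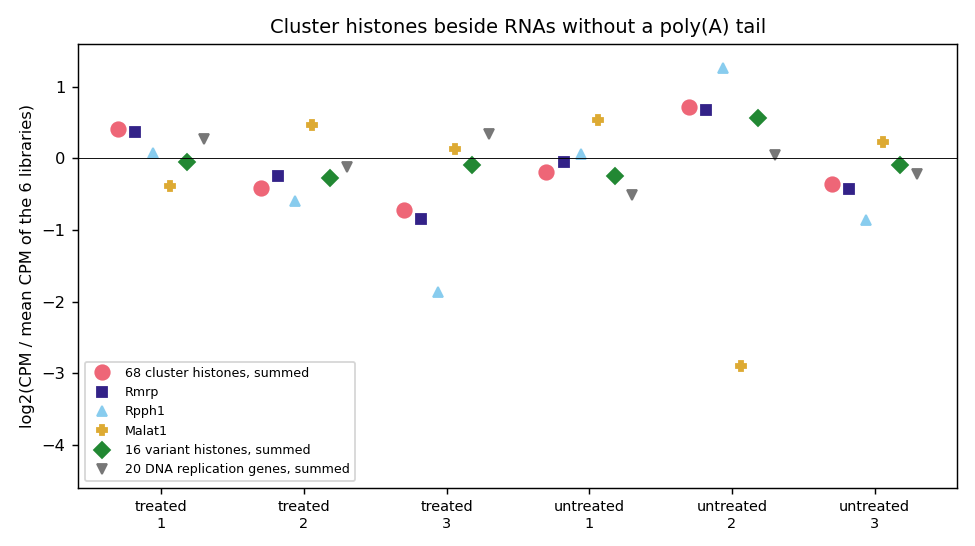
Log2 of CPM over the mean of the 6 libraries, for summed cluster histones, Rmrp, Rpph1, Malat1, summed variant histones and 20 summed DNA replication genes, with treated libraries left of untreated ones. Cluster histones, Rmrp and Rpph1 are highest in untreated 2 and lowest in treated 3, where the replication genes are highest, and Malat1 is lowest in untreated 2.

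Genes that work with histones were counted in 4 lists, beside 49.9% of all genes higher in treated tumours, 3.32% higher and 4.85% lower at unadjusted p under 0.05, and 0% called. Of 20 tested DNA replication genes, 18 were higher and 2 lower in treated tumours (median log2 fold change 0.41, and 0.58 without untreated 2), with 0 called and 6 higher at unadjusted p under 0.05. Their summed level was 2212, 1684 and 2312 CPM in treated and 1282, 1887 and 1562 CPM in untreated tumours. Treated 3 was thus the highest library in replication genes and the lowest in cluster histones, whose mRNAs are made during replication. Treated 1, close behind it in replication genes, was next to highest in cluster histones as well. Mcm5 and Mcm3, subunits of the replicative helicase, had log2 fold changes of 0.83 ± 0.24 and 0.91 ± 0.31 (edgeR adjusted p = 0.592 for both), and of 0.74 and 0.68 without untreated 2. Of 20 mitosis genes, 19 were higher and 1 lower (median 0.43, and 0.55 without untreated 2), with 0 called and 7 higher at unadjusted p under 0.05. Bub1b, a spindle checkpoint kinase, and Cdc20, an activator of the anaphase-promoting complex, had log2 fold changes of 0.67 ± 0.23 and 0.86 ± 0.30 (edgeR adjusted p = 0.592 for both), and 0.67 for both without untreated 2.

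Of 20 tested histone chaperones, 16 were higher and 4 lower (median 0.30, and 0.31 without untreated 2), with 0 called and 2 higher at unadjusted p under 0.05. Anp32e, which removes H2A.Z from chromatin, had 243, 207 and 329 CPM in treated and 166, 96.8 and 188 CPM in untreated tumours (log2 fold change 0.78 ± 0.30, edgeR adjusted p = 0.592, and 0.56 without untreated 2). Mcm2, which also stands in the replication list, had a log2 fold change of 0.75 ± 0.27 (edgeR adjusted p = 0.592), and 0.58 without untreated 2. Of 18 tested genes for histone mRNA processing and turnover, 8 were higher and 10 lower (median -0.02, and 0.21 without untreated 2), with 0 called and 0 at unadjusted p under 0.05. Slbp, the stem-loop binding protein, had 59.3, 47.2 and 65.8 CPM in treated and 51.3, 79.5 and 47.6 CPM in untreated tumours (log2 fold change -0.07 ± 0.28, edgeR adjusted p = 0.938). Npat, the coactivator of cluster histone transcription, had 83.9, 75.5 and 66.3 CPM in treated and 68.4, 143 and 76.3 CPM in untreated tumours (log2 fold change -0.37 ± 0.34, edgeR adjusted p = 0.703). Both were highest in untreated 2, and their groups overlapped. Without it the fold changes were 0.22 for Slbp and 0.06 for Npat. Cpsf3, the endonuclease that cuts histone pre-mRNA, and Lsm11, a subunit of the U7 particle, had log2 fold changes of 0.25 ± 0.17 and 0.45 ± 0.33 (edgeR adjusted p = 0.639 and 0.655), and of 0.21 and 0.17 without untreated 2.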

How the data were processed

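Per the labels, Trizol was used for total RNA and a NEBNext kit that keeps strand for libraries. Per the submitters' processing notes, TopHat (version not given) and mm10 were used. Neither a counting program nor a strand setting nor an annotation is stated, so overlapping and antisense genes can share reads. The authors deposited raw counts per gene symbol, 1 table per library, with totals of 4680295 to 8019294. Samples were grouped by their titles. CPM is the count over the library's total. Genes that passed filterByExpr (smallest count 10) were tested 2-sided in edgeR 4.0.16 (R 4.3.3) by glmQLFit and glmQLFTest, with TMM factors of 0.96 to 1.02, and p-values were Benjamini-Hochberg adjusted over every gene tested. SE is the absolute log2 fold change over the root of F. DESeq2 1.42.0 and limma-voom (limma 3.58.1) were alternatives, among others. With 3 against 3, an exact permutation p cannot go below 0.1. Log2 differences of untreated 2 for single genes, and their medians, use a prior count of 2. The fit was tested on simulated data. Depths cover counting error only. Members and lists were chosen with earlier results of these data known. Named were the 2 members per cluster class with the highest CPM per kb, variants with a mean of at least 5 CPM, members with unadjusted p under 0.05, Slbp, Npat, and the 2 genes with the smallest p per list. GENCODE M21 models gave GC content, length and stem-loops, and RefSeq gave promoters.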

Additional observations from a re-analysis of the deposited data

How the results depend on the processing

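Of the alternatives run, none called a histone member, and 37 values for named genes changed sign while 278 other values kept direction and side of the threshold. Genes called numbered 43 with DESeq2, 0 to 4 on leaving out 1 library each (4 without untreated 3), and 233 with DESeq2 without untreated 2, which was chosen after seeing the data. That last fit turned Hist1h2ak to 0.20, Hist1h2ai to 0.15, Hist2h2bb to 0.16, Hist1h3e to 0.24, Hist1h4k to 0.30, Hist1h4h to 0.086, H1f0 to -0.011, H1fx to -0.060 and H2afz to 0.52 (log2 fold changes). With the GC and length trend removed, Hist1h2ak was 0.015 and H2afz 0.037, and limma-voom gave 0.017 for H2afz. Leaving out 1 library each, log2 fold changes ranged from -0.51 to 0.52 for Hist1h1b, -0.21 to 0.40 for Hist1h1a, -0.62 to 0.22 for Hist1h2ak, -1.19 to 0.13 for Hist1h2ai, -0.57 to 0.15 for Hist2h2bb, -0.57 to 0.23 for Hist1h3e, -0.43 to 0.51 for Hist1h3i, -0.71 to 0.29 for Hist1h4k, -1.32 to 0.069 for Hist1h4h, -0.014 to 0.12 for H1f0, -0.064 to 0.37 for H1fx, -0.065 to 0.28 for H2afj and -0.42 to 0.51 for H2afz. The replicate block called 0 members and 0 genes and gave 0.034 for H2afz. Deviations from the group means had correlations of -0.18, -0.12 and 0.09 between same-numbered libraries, against -0.22 to 0.24 between other pairs. With 3 libraries per group and untreated 2 apart, these values cannot exclude a pairing, and the labels state none. The log2 value of variant histones in untreated 2 was 0.71, and 0.82 over DESeq2 size factors, -0.19 as a mean of log2 CPM over members and 0.37 with the GC and length trend removed, which also lowered the cluster value there to 0.60, against 0.93 as counted. The cluster to variant ratio there was 0.22, and 0.91 as that mean. The cause was not tested in each case. Low depth limits the members with few counts.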

Other observations

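The long nuclear RNA Neat1, picked with its values in view, was measured at 2567, 3285 and 3661 CPM in treated tumours 1 to 3 and at 2925, 421.1 and 2591 CPM in untreated tumours 1 to 3. It was lowest in untreated 2, where cluster histones were highest.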
